A study of Mus musculus with 10 samples.

Results

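The 9 genes described here encode the subunits of cohesin in the mouse. They were taken by symbol from the deposited TPM table and matched by gene identifier to the count table, and all 9 were found among 55536 genes. Of these, 4 encode subunits made mainly in meiosis (Smc1b, Rec8, Rad21l and Stag3). The other 5 encode the mitotic counterparts Smc1a, Rad21, Stag1 and Stag2, and Smc3, which both forms of the complex use.

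Cohesin is a ring that holds sister chromatids together and shapes chromatin loops. It is built from a pair of SMC ATPases, a kleisin that closes the ring and a STAG protein that docks on the kleisin. Meiotic cohesin can hold SMC1B for SMC1A, REC8 or RAD21L for RAD21, and STAG3 for STAG1 or STAG2. It forms the axes on which homologous chromosomes pair in meiotic prophase. In mouse oocytes REC8 is loaded in fetal life and keeps chromatids together until the meiotic divisions.

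RNA was sequenced from female germ cells of the C57BL/6 strain at E16.5. The libraries comprise 5 labelled Taf4b-heterozygous and 5 labelled Taf4b-deficient. Parents were heterozygous for the Taf4b mutation and homozygous for an Oct4-EGFP transgene, so both genotypes carried the transgene, and no library was wild type for Taf4b. Gonads were dissociated with trypsin, dead cells that took up propidium iodide were discarded, and GFP-positive cells were sorted. TAF4B is a TFIID subunit enriched in gonads, and TFIID assembles at core promoters. The labels give 3 litter dates and do not say which libraries are separate embryos, so the p-values below reflect only how these libraries spread, which may be partly technical.

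Total counts ran from 16707216 to 26983565 per library, and the lowest count of any cohesin gene in any library was 51, for Rec8 in heterozygous 5. CPM (a gene's counts scaled to a common library size) uses library sizes adjusted by the trimmed mean of M-values (TMM). The mean CPM of Taf4b was 174 ± 101 for heterozygous and 74.9 ± 9.86 for deficient libraries (SD, n = 5 each), with an edgeR log2 fold change of -1.22 ± 0.35 (SE, adjusted p = 0.155). The authors' deposited table gave -1.29 with an adjusted p of 0.000152. Where the mutation lies in the gene is not given in the sources used here. The library labelled heterozygous 4 had 65.7 CPM of Taf4b, inside the deficient range of 58.2 to 81.7 CPM, and it is counted by its label below. The library labelled heterozygous 4, heterozygous 5 and deficient 5 stood apart from the others, with the alpha-globin gene Hba-a1 above 200 CPM (260, 798 and 590 CPM) against 24.0 to 102 CPM. The germ cell genes Ddx4, Dazl, Pou5f1, Dppa3 and Mael had counts in every library, with a sum of 3235 to 4330 CPM among heterozygous and 2418 to 3980 CPM among deficient libraries. Pou5f1 was near 0, at 0.173 to 1.16 CPM, and Dppa3 ran from 1.86 to 114 CPM, so the sum rested mainly on Dazl, Mael and Ddx4. All 6 erythroid markers also had counts in every library, with a sum of 65.0 to 2083 CPM and 107 to 1605 CPM respectively. The summed levels of the 5-gene lists were 12.2 to 41.9 and 20.9 to 60.5 CPM for pregranulosa cells, 15.1 to 83.4 and 12.5 to 55.0 CPM for endothelium, 7.95 to 22.5 and 7.67 to 39.0 CPM for stroma, and 51.6 to 112 and 27.2 to 90.3 CPM for macrophages, with no marker at 0 in all libraries. By edgeR, log2 fold changes were negative for all 4 tested germ cell markers, all 6 erythroid and all 5 macrophage markers. They were positive for all 5 pregranulosa markers and for 4 of 5 endothelial and 4 of 5 stroma markers, against 48.9% of all genes. No marker was called, where edgeR called 0 of all 19244 genes. At an unadjusted p under 0.05 stood 2 pregranulosa and 1 stroma marker, higher in deficient libraries, and 1 endothelial marker, lower. The other lists had 0, and the share over all genes was 16.6%. Median log2 fold changes were 1.08 for pregranulosa, 0.53 for stroma, 0.23 for endothelial, -0.31 for germ cell, -0.34 for macrophage and -0.48 for erythroid markers. The part of these markers in the results that follow was not tested. In sorted bulk RNA, fewer cells of a type and less RNA per cell cannot be told apart.

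Transcripts of Smc1b and Stag3 were the most abundant of the 9, and Rad21 and Stag2 the least. In CPM per kilobase of annotated exon, averaged over the 10 libraries, Smc1b was highest at 495 ± 120 (SD, n = 10), followed by Stag3 at 225 ± 118 and Smc3 at 79.7 ± 31.3. Rad21l stood at 41.1 ± 17.3, Smc1a at 22.2 ± 4.46, Rec8 at 9.50 ± 6.70 and Stag1 at 9.25 ± 2.33. Rad21 stood at 4.97 ± 1.01 and Stag2 at 3.66 ± 0.807. The ranges of every pair of neighbours in this order overlapped across libraries.

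The deposited TPM gave the same order except for Stag1, which came next after Stag3 at 215 ± 38.8 TPM (SD, n = 10). Each TPM was the deposited count divided by a fixed gene length, within a coefficient of variation of 1e-06 for all 11004 genes with at least 50 counts in every library. For Stag1 that length worked out as 585 bases, whereas its annotated exons cover 11781 bases and its longest transcript has 6186. For the other 8 genes the annotated exon length was 0.997 to 1.16 times the length implied by the TPM. Implied lengths below 20% of the exon length occurred in 1166 genes, 10.6% of those with an annotated length. The TPM level of Stag1 was therefore compared with other genes only beside the values per kilobase.

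**Figure D1:**
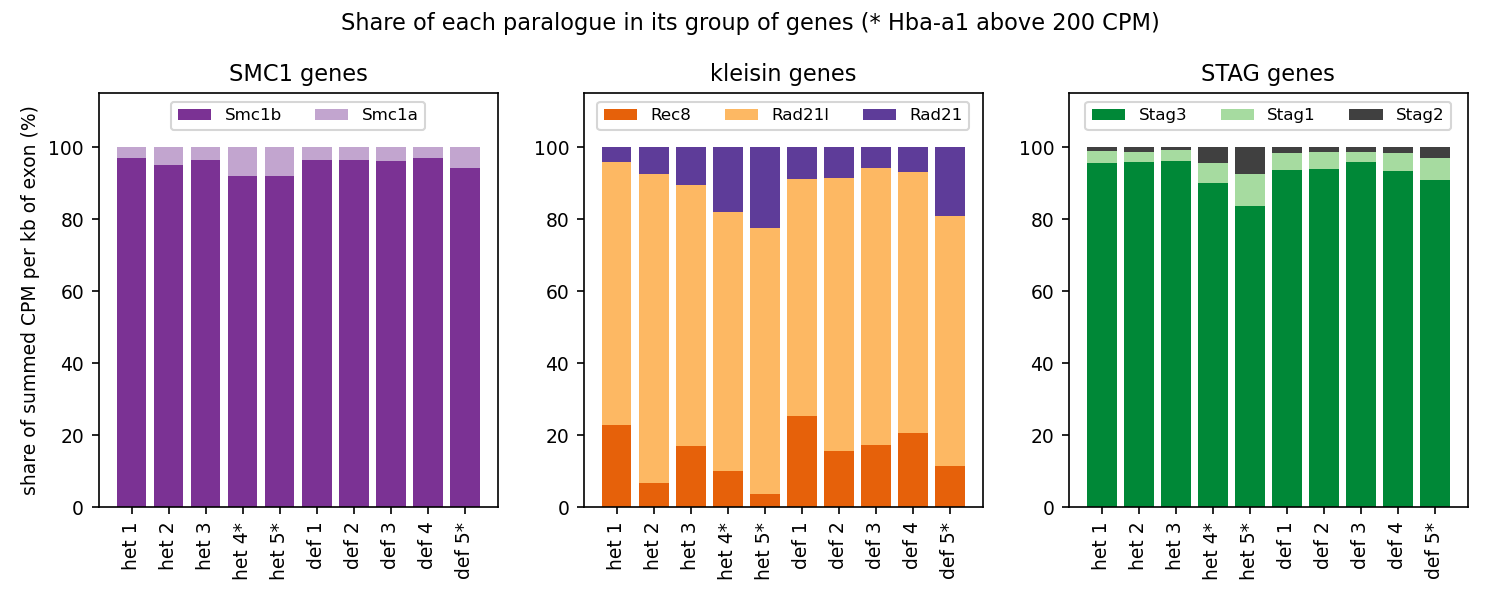
Stacked bars give the share (%) of each paralogue in the summed CPM per kilobase of exon of its gene group, for each of the 5 heterozygous (het) and 5 deficient (def) libraries; asterisks mark Hba-a1 above 200 CPM. Smc1b, Rad21l and Stag3 took the largest share of their group in every library, and Rad21 and Stag2 took more in the marked libraries.

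The meiosis-specific SMC1 predominated. Smc1b (ENSMUSG00000022432, GRCm38 chromosome 15, 85064689 to 85131964, minus strand) encodes an ATPase that can take the place of SMC1A in meiotic cohesin. It made up 92.0% to 97.1% of the summed SMC1 level per kilobase. Within libraries, Smc1b exceeded Smc1a by 4.40 ± 0.57 on the log2(TPM + 0.1) scale (SD, n = 10), about 21.2-fold and between 11.0-fold and 32.5-fold by library. The difference was positive in 10 of 10 libraries, with p = 0.00195 in a two-sided exact sign-flip test, the smallest p it allows, and 0.00326 after Benjamini-Hochberg adjustment over the 5 pairs compared.

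Rad21l was the leading kleisin. Rad21l (ENSMUSG00000074704, chromosome 2, 151645404 to 151668533, minus strand) encodes a kleisin that acts in early prophase and in the pairing of homologues. It made up 66.0% to 86.0% of the summed kleisin level per kilobase, against 3.58% to 25.3% for Rec8 and 4.11% to 22.4% for Rad21. Rad21l exceeded Rad21 by 2.98 ± 0.83 on the log2(TPM + 0.1) scale (SD, n = 10) in 10 of 10 libraries, about 7.87-fold (exact sign-flip test, adjusted p = 0.00326).

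Rec8 and Rad21 could not be ordered over all 10 libraries. Rec8 (ENSMUSG00000002324, chromosome 14, 55618037 to 55625395, plus strand) encodes the kleisin whose cleavage releases chromosomes in meiosis, and Rad21 (ENSMUSG00000022314, chromosome 15, 51962240 to 51991747, minus strand) encodes its mitotic counterpart. Their log2(TPM + 0.1) ratio averaged 0.40 ± 1.497 (SD, n = 10), was positive in 6 of 10 libraries and ran from -2.58 in heterozygous 5 to 2.40 in heterozygous 1 (exact sign-flip test, adjusted p = 0.418). The 3 libraries high for Hba-a1 held its 3 lowest values. Without them the mean was 1.18 (exact sign-flip test, adjusted p = 0.03125, n = 3 heterozygous and 4 deficient). That set leaves out the 3 lowest values, so it does not order the genes over all 10 libraries. In heterozygous libraries alone the mean ratio was -0.11.

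Among STAG genes, Stag3 (ENSMUSG00000036928, chromosome 5, 138280240 to 138312393, plus strand), which encodes the STAG subunit of meiotic cohesin, took 83.7% to 96.3% of the summed level per kilobase. Stag3 exceeded Stag2 by 5.57 ± 1.09 on the log2(TPM + 0.1) scale (SD, n = 10), about 47.5-fold, in 10 of 10 libraries (exact sign-flip test, adjusted p = 0.00326). Against Stag1 the result turned on the gene length. On deposited TPM the ratio was 0.16 ± 0.62, positive in 6 of 10 libraries (exact sign-flip test, adjusted p = 0.418). Per kilobase of exon it was 4.41 and per kilobase of the longest transcript 3.78, each positive in 10 of 10 libraries (exact sign-flip test, adjusted p = 0.00244 for both).

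**Figure D2:**
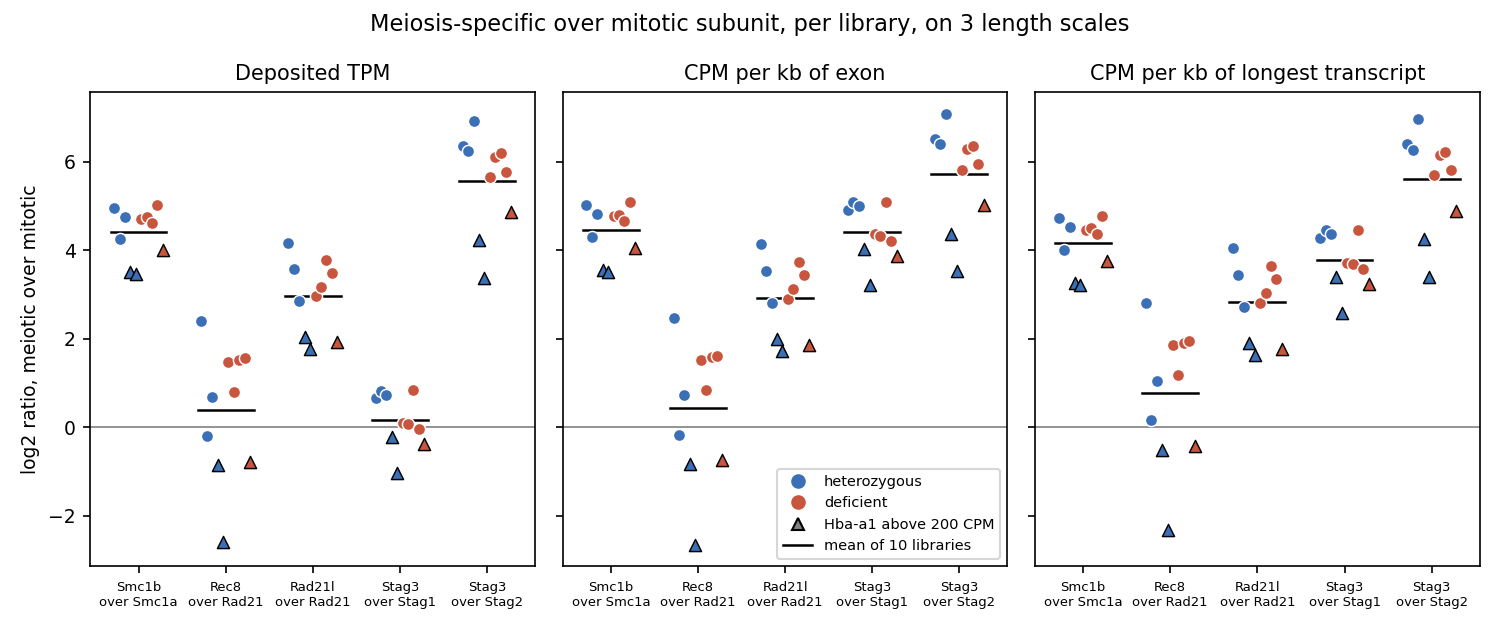
Each point is 1 library (blue heterozygous, red deficient, triangles Hba-a1 above 200 CPM) and lines are means of 10 libraries; the y axis is the log2 ratio of a meiosis-specific gene to its mitotic counterpart, in TPM, CPM per kilobase of exon and CPM per kilobase of the longest transcript. Stag3 over Stag1 moved from a mean of 0.16 in TPM to 4.41 and 3.78 on the other scales, and the triangles were the 3 lowest points of each pair on each scale.

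Promoter sequence is shown for the SMC1 pair and the meiotic kleisins, since Smc1b and Smc1a differed in level in every library, and both Rec8 and Rad21l were low in the libraries high for Hba-a1. The sequences are from RefSeq (GRCm38.p6), which gave windows of the 250 bases before the RefSeq start for 7 of the 9 genes. That start need not match the gene coordinates given in this text. They are printed 5′ to 3′ on the gene's strand without any bases that fall in annotated exons. Smc1b is chr15:85131965-85132077 on the minus strand, Smc1a is chrX:152016296-152016427 on the plus strand, Rec8 is chr14:55617916-55618036 on the plus strand and Rad21l is chr2:151668534-151668783 on the minus strand. Capitals mark matches on either strand to the CCAAT box (CCAAT), the GC box (GGGCGG), the E-box (CACGTG) and an E2F-type motif (GCGGGA).
Smc1b: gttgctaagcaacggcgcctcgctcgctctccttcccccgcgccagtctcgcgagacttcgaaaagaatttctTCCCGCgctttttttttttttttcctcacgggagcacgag
Smc1a: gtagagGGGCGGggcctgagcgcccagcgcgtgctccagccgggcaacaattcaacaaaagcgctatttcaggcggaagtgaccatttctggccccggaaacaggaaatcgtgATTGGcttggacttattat
Rec8: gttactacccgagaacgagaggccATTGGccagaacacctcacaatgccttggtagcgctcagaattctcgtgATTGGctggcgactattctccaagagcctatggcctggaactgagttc
Rad21l: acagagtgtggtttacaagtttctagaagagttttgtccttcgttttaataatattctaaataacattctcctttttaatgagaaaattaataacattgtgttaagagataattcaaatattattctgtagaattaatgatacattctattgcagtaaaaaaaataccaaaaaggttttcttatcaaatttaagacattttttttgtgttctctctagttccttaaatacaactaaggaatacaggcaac

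Counted over the whole 250 bases, Rec8 had 3 CCAAT matches, starting at -226, -177 and -81 from the RefSeq start, and 1 GCGGGA match at -38. The printed Rec8 bases run from -250 to -130. The rest of its window, 129 bases with the matches at -81 and -38, is annotated exon. Smc1b had 1 CCAAT match at -147, in annotated exon, and 1 GCGGGA match at -47, within its printed bases. Smc1a had 1 GGGCGG match at -126 and 1 CCAAT match at -19, and Rad21l had none of the 4 motifs. Of the genes not printed, Stag3 had 1 CACGTG match at -170 and 1 CCAAT match at -239. All 250 bases of the Stag3 window are annotated exon. Stag1 had 4 GGGCGG matches, 1 CCAAT and 1 GCGGGA match, in a window at chr9:100643198-100643447 that lies inside its annotated gene span. Smc3 had 1 GGGCGG and 1 GCGGGA match. Among 32851 RefSeq promoter windows of the same length, 33.8% held CCAAT, 32.7% GGGCGG, 6.02% CACGTG and 16.9% GCGGGA. A match describes letters in a window only.

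The genotype comparison asked whether cohesin transcripts differed between Taf4b-deficient and heterozygous oocytes, and no cohesin gene was called. All 9 genes passed edgeR's expression filter, and 0 had an adjusted p under 0.05, where edgeR's quasi-likelihood test called 0 of 19244 genes (0%). At an unadjusted p under 0.05 there were 0 cohesin genes, against 16.6% of all genes. In 0 cohesin genes did the CPM of the genotypes fail to overlap, against 3.53% of all genes. DESeq2 called 679 genes (3.35%), edgeR without heterozygous 1 called 606 (3.07%), edgeR with high Hba-a1 as a covariate called 241 (1.25%) and the authors' deposited table held 1172 calls (6.55%), in each case with 0 cohesin genes. The log2 fold change was positive for 7 of the 9, against 48.9% of all genes. The median log2 fold change, deficient over heterozygous, was 0.39 over the 4 meiosis-specific genes, 0.16 over the other 5 and -0.02 over all genes tested. Without the libraries high for Hba-a1, edgeR gave 0.09 for Smc1b, 0.62 for Rec8, 0.27 for Rad21l and -0.31 for Stag3. It then gave -0.02 for Smc1a, 0.44 for Rad21, 0.13 for Stag1, 0.21 for Stag2 and -0.11 for Smc3. The values of the meiosis-specific and the other genes overlapped.

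**Figure D3:**
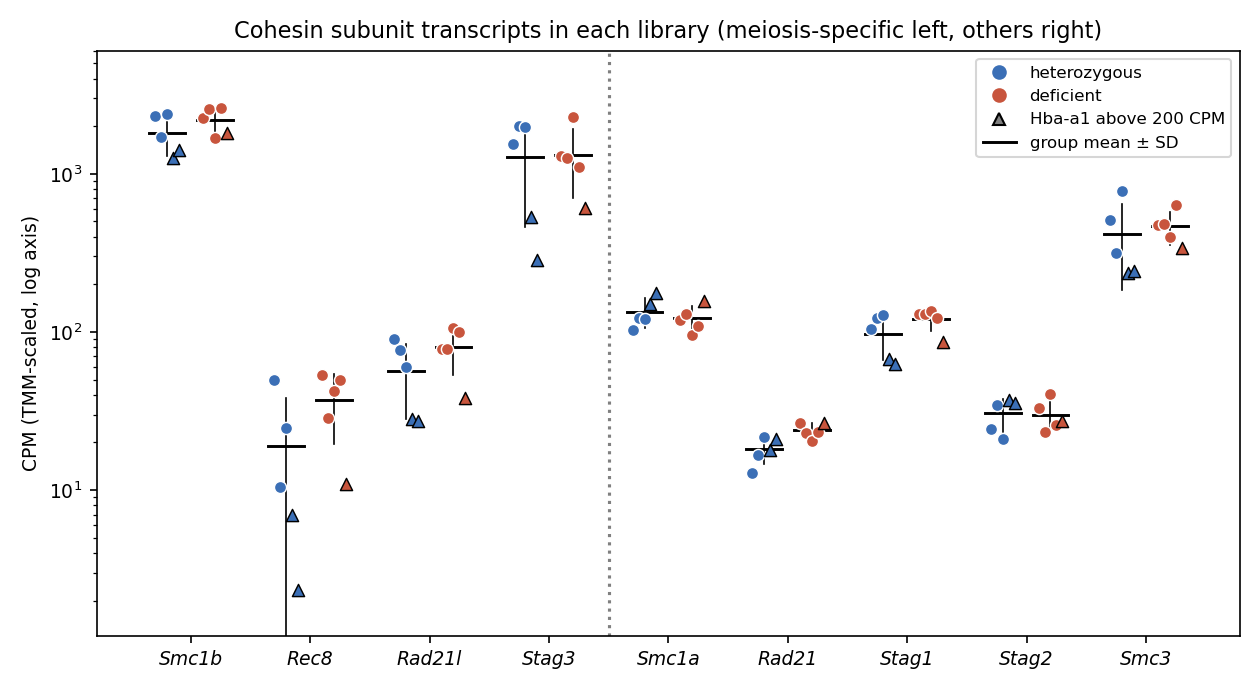
CPM of each cohesin gene by library, in heterozygous and deficient groups of 5, with the mean and SD of each group; triangles are libraries with Hba-a1 above 200 CPM, and the lower error bar of Rec8 in heterozygous libraries runs below the axis. The groups overlapped for all 9 genes, and the triangles held the lowest values of Stag3 and Rad21l and the highest of Smc1a.

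Rec8 had the largest genotype difference of the 9 and the widest spread. It was at 49.7, 10.4, 24.8, 7.0 and 2.34 CPM in heterozygous 1 to 5, and at 53.1, 28.5, 42.2, 49.6 and 11.0 CPM in deficient 1 to 5. The groups overlapped, with heterozygous 1 above all deficient libraries but deficient 1, and deficient 5 close to heterozygous 2. The means were 18.9 ± 19.2 and 36.9 ± 17.3 CPM (SD, n = 5 each), a log2 fold change of 0.97 ± 0.64 (SE, edgeR adjusted p = 0.455). It was 1.73 without heterozygous 1 (edgeR adjusted p = 0.112), 1.62 with litter date in the model (0.188) and 0.62 without the libraries high for Hba-a1 (0.531). Deficient libraries exceeded heterozygous ones by 1.22, 1.39 and 3.27 (log2) on the first, the second and the third litter date. On the first date the only deficient library, deficient 1 (53.1 CPM), was near heterozygous 1 (49.7 CPM), and heterozygous 2 was at 10.4 CPM. The second date held heterozygous 3 at 24.8 CPM and heterozygous 4, which is high for Hba-a1, at 7.0 CPM. On the third date the only heterozygous library was heterozygous 5, which is high for Hba-a1. In the authors' deposited table Rec8 had a log2 fold change of 0.80 with an adjusted p of 0.167.

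Rad21l was at 89.7, 76.4, 59.6, 28.3 and 27.3 CPM in heterozygous 1 to 5 and at 78.5, 78.5, 106, 99.3 and 38.0 CPM in deficient 1 to 5. The 2 lowest values of the heterozygous group and the lowest of the deficient group were in libraries high for Hba-a1. The log2 fold change was 0.51 ± 0.36 (SE, edgeR adjusted p = 0.484), and 0.27 without the libraries high for Hba-a1. By litter date the difference was -0.08, 1.15 and 1.17, so its direction was not shared by all dates.

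Stag3 had nearly equal means. It was at 1544, 2012, 1977, 536 and 285 CPM in heterozygous 1 to 5 and at 1303, 1261, 2275, 1102 and 611 CPM in deficient 1 to 5. Heterozygous libraries fell into a high set of 3 and a low set of 2, and all deficient libraries but deficient 3 lay between these sets. The log2 fold change was 0.04 ± 0.49 (SE, edgeR adjusted p = 0.974). It was -0.31 (edgeR adjusted p = 0.641) without the 3 libraries high for Hba-a1.

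Smc1b, the most abundant of the genes, was at 2333, 1708, 2376, 1251 and 1416 CPM in heterozygous 1 to 5 and at 2266, 2559, 1696, 2606 and 1821 CPM in deficient 1 to 5. Deficient 2 and 4 exceeded every heterozygous library, and the other deficient libraries lay inside the heterozygous range. The log2 fold change was 0.27 ± 0.25 (SE, edgeR adjusted p = 0.606), and 0.09 without the libraries high for Hba-a1.

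Rad21 came nearest to a difference among the mitotic genes. It was at 12.9, 16.8, 21.6, 18.0 and 21.1 CPM in heterozygous 1 to 5 and at 26.7, 22.8, 20.3, 23.4 and 26.6 CPM in deficient 1 to 5. Deficient 3 was the only deficient library within the heterozygous range. The log2 fold change was 0.41 ± 0.19 (SE, edgeR adjusted p = 0.315), with differences of 0.85, 0.12 and 0.24 by litter date. With high Hba-a1 as a covariate, edgeR gave 0.45 (adjusted p = 0.192), and the authors' deposited table gave 0.44 with an adjusted p of 0.175.

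Smc1a (ENSMUSG00000041133, chromosome X, 152016428 to 152062694, plus strand), the SMC1 of somatic cells, was at 102, 123, 120, 151 and 177 CPM in heterozygous 1 to 5. In deficient 1 to 5 it was at 119, 131, 95.1, 110 and 156 CPM. It was highest in the libraries where Rec8, Rad21l and Stag3 were low, and the genotypes overlapped (log2 fold change -0.14 ± 0.20 SE, edgeR adjusted p = 0.753).

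Stag1 (ENSMUSG00000037286, chromosome 9, 100597798 to 100959375, plus strand), a mitotic STAG subunit, was at 105, 122, 128, 66.9 and 62.9 CPM in heterozygous 1 to 5. In deficient 1 to 5 it was at 131, 129, 136, 123 and 86.0 CPM. The low values of both groups were in the libraries high for Hba-a1 (log2 fold change 0.32 ± 0.23 SE, edgeR adjusted p = 0.499), and without these it was 0.13.

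Stag2 (ENSMUSG00000025862, chromosome X, 42149317 to 42277185, plus strand), its X-linked paralogue, was at 24.3, 34.5, 20.97, 37.2 and 35.7 CPM in heterozygous and 33.3, 23.4, 40.3, 25.9 and 27.3 CPM in deficient 1 to 5. The ranges nearly coincided (log2 fold change -0.02 ± 0.22 SE, edgeR adjusted p = 0.968). Of its exon bases, 28 are overlapped by a gene on the opposite strand, and the strand setting of the counting is not given in the sources used here.

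Smc3 (ENSMUSG00000024974, chromosome 19, 53600398 to 53645833, plus strand), the SMC partner in both complexes, was at 508, 316, 782, 235 and 242 CPM in heterozygous 1 to 5 and at 475, 483, 401, 634 and 338 CPM in deficient 1 to 5. Heterozygous values spread over both sides of the deficient range (log2 fold change 0.16 ± 0.33 SE, edgeR adjusted p = 0.836). Among its 50-base stretches, 1.56% also occur in another annotated transcript, so a small part of its counts is uncertain.

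The balance of meiosis-specific to mitotic genes did not pass the test between genotypes for any of the 5 pairs. The log2(TPM + 0.1) ratio of Smc1b to Smc1a was 4.19 ± 0.69 in heterozygous and 4.62 ± 0.38 in deficient libraries (SD, n = 5 each), a difference of 0.43 (two-sided exact permutation test, p = 0.246, adjusted p = 0.694). Rec8 over Rad21 was -0.11 ± 1.84 and 0.92 ± 1.00 (SD, n = 5 each), a difference of 1.03 (exact permutation p = 0.278, adjusted p = 0.694). That difference was 1.65 without heterozygous 1, 0.41 without heterozygous 5 and 0.38 without the libraries high for Hba-a1. The differences were 0.18 for Rad21l over Rad21, -0.08 for Stag3 over Stag1 and 0.30 for Stag3 over Stag2 (exact permutation test, adjusted p = 0.913 for each). With 5 libraries a group the smallest p this test allows is 0.00794. Without the libraries high for Hba-a1, Stag3 over Stag2 was 6.50 in heterozygous and 5.93 in deficient libraries, a difference of -0.56 (exact permutation p = 0.0571, adjusted p = 0.286, n = 3 and 4). That set of 7 libraries allows no p below 0.0286.

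Rec8, Rad21l and Stag3 spread more among libraries of 1 genotype than the median gene did, and Smc1b spread less. The median log2 range of these 4 genes was 2.27 in heterozygous and 1.69 in deficient libraries, against 1.33 and 0.93 over all 19244 genes tested and 0.83 and 0.72 over the 5 mitotic or shared genes. In libraries high for Hba-a1 the mean log2 CPM of Rec8 was lower than in the others by 2.51, a difference of -2.51. The same difference was -1.81 for Stag3, -1.42 for Rad21l and -0.57 for Smc1b. Among the other genes it was -0.89 for Smc3, -0.80 for Stag1, 0.10 for Rad21, 0.23 for Stag2 and 0.50 for Smc1a, and its median over all genes was 0.02. It kept its sign within each genotype for all of these except Stag2, with Rec8 at -2.50 among heterozygous and -1.93 among deficient libraries. Since the libraries were set apart by a measured gene, these values are a description with no test.

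**Figure D4:**
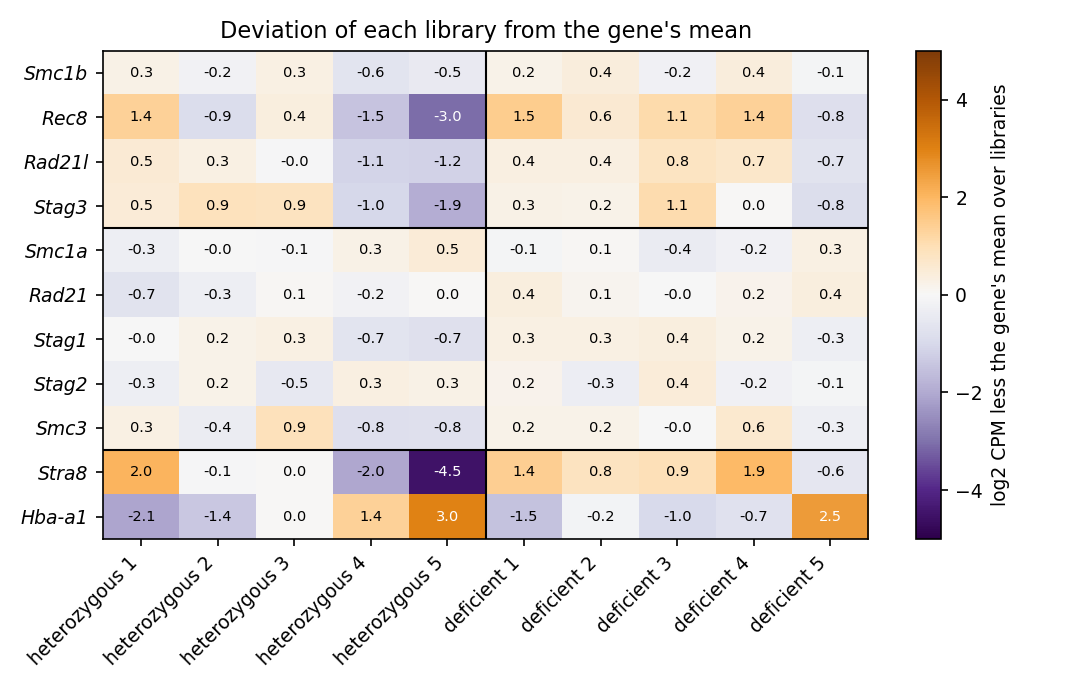
Colours give the deviation of log2 CPM from the mean of the 10 libraries for each cohesin gene and for Stra8 and Hba-a1, by library (orange higher, purple lower). Rad21l and Stag3 were lowest in the library labelled heterozygous 4, heterozygous 5 and deficient 5, where Smc1a and Hba-a1 were high, and Rec8 was low in these and in heterozygous 2.

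Stra8, a gene needed for meiotic entry, was at 965, 221, 237, 56.3 and 10.3 CPM in heterozygous 1 to 5 and at 630, 415, 447, 882 and 156 CPM in deficient 1 to 5. Rec8 ordered the libraries almost as Stra8 did, with Pearson r = 0.96 and Spearman rho = 0.95 on log2 CPM over 10 libraries, and r = 0.86 over the 7 libraries not high for Hba-a1. Rad21l and Stra8 gave r = 0.90 over 10 and 0.65 over 7 libraries. For Stag3 and Stra8, r was 0.79 over 10 libraries and -0.64 over 7, so its sign rested on the libraries high for Hba-a1. These values share libraries and scaling, and are given as a description.

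Among the subunits, Rec8 and Rad21l had r = 0.88 over 10 libraries and 0.50 over 7. Rad21l and Stag3 had r = 0.86 over 10 and -0.15 over 7. Smc1a ran opposite to Rad21l, with r = -0.92 over 10 and -0.73 over 7. Smc1b and its ring partner Smc3 had r = 0.91 over 10 and 0.76 over 7, and Stag2 ran opposite to Smc1b at -0.78 and -0.82. The mitotic gene Stag1 ran with Rad21l and Stag3, at 0.92 and 0.91 over 10, but at -0.04 and 0.18 over 7. Smc1b and Stag3 had 0.55 over 10 and -0.81 over 7, so the pairs did not divide by meiotic and mitotic genes.

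Among 9859 genes with a mean log2 CPM of at least 3, those most like each meiosis-specific gene over the 10 libraries, by Pearson r of log2 CPM, were as follows. For Smc1b they were Smc6 (0.973), Mphosph8 (0.973) and Upf3a (0.971). For Rec8 they were Tubb5 (0.980), Phf19 (0.976) and Anp32e (0.967). For Rad21l they were Madd (0.987), Paip2b (0.986) and Dhx15 (0.986), and for Stag3 they were Pcx (0.997), Bcl2l13 (0.996) and Relch (0.992). No other subunit of cohesin was among them, which says little with so few genes listed out of 9859. All these values include the libraries high for Hba-a1.

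Genes that load, release, modify or cleave cohesin were followed as a list of 15. All 15 were tested and edgeR called 0, with 10 positive and 5 negative log2 fold changes and a median of 0.27, against -0.02 over all genes. At an unadjusted p under 0.05 there were 5 (4 higher and 1 lower in deficient libraries), against 16.6% of all genes, with 7.45% of all genes higher.

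Pds5a and Pds5b encode the paired scaffold proteins that regulate both release and stability of cohesin on chromatin. Pds5b was at 43.9, 37.7, 34.8, 32.1 and 32.9 CPM in heterozygous 1 to 5 and at 64.9, 67.2, 51.5, 64.1 and 43.3 CPM in deficient 1 to 5. Deficient 5 alone fell within the heterozygous range, and the log2 fold change was 0.68 ± 0.18 (SE, edgeR adjusted p = 0.145). Pds5a was at 56.0, 53.9, 54.2, 48.7 and 46.9 CPM in heterozygous 1 to 5 and at 86.5, 85.5, 72.4, 76.0 and 62.8 CPM in deficient 1 to 5. It was the only gene of the 15 whose genotypes did not overlap (1.94% of all genes lay wholly higher in deficient libraries), with a log2 fold change of 0.56 ± 0.16 (SE, edgeR adjusted p = 0.155). DESeq2 on genotype gave adjusted p = 0.0357 for Pds5a and 0.0307 for Pds5b. The authors' deposited table gave adjusted p-values of 0.0315 and 0.0134. Without the libraries high for Hba-a1, edgeR gave log2 fold changes of 0.55 and 0.68 (adjusted p = 0.298 and 0.287). Without heterozygous 1 edgeR called Pds5b, at 0.76 (adjusted p = 0.0492), while Pds5a had an adjusted p of 0.0716.

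Nipbl, the loader of cohesin onto DNA, was at 293, 287, 289, 164 and 143 CPM in heterozygous 1 to 5 and at 382, 460, 314, 431 and 287 CPM in deficient 1 to 5. Of the deficient libraries 4 exceeded every heterozygous library, and the log2 fold change was 0.67 ± 0.25 (SE, edgeR adjusted p = 0.214). Its log2 fold change in the authors' deposited table was 0.55 with an adjusted p of 0.0401. DESeq2 gave 0.65 (adjusted p = 0.157), and edgeR without the libraries high for Hba-a1 gave 0.45 (adjusted p = 0.387). Wapl, which opens the ring and releases it from chromatin, was at 261, 259, 183, 96.9 and 169 CPM in heterozygous 1 to 5 and at 295, 303, 328, 308 and 252 CPM in deficient 1 to 5. Deficient 5 was the only deficient library within the heterozygous range. Its log2 fold change was 0.62 ± 0.25 (SE, edgeR adjusted p = 0.246). It was 0.40 without the libraries high for Hba-a1 (edgeR adjusted p = 0.422) and 0.32 with libraries of the second litter date left out. Leaving out those of the first gave 1.00. Cdca5, the gene of sororin, which protects cohesion in mitotic cells, averaged 31.9 ± 6.41 CPM among heterozygous and 23.6 ± 3.04 CPM among deficient libraries (SD, n = 5 each), a log2 fold change of -0.43 ± 0.19 (SE, edgeR adjusted p = 0.278).

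The remaining regulators all had adjusted p-values of 0.332 or more in edgeR. The acetyltransferase genes Esco1 and Esco2 had log2 fold changes of 0.27 and 0.32 (0.02 for Esco2 without the libraries high for Hba-a1), and the loader subunit gene Mau2 had 0.26. Hdac8, the gene of the SMC3 deacetylase, had -0.73, but -0.47 without heterozygous 5 and -0.06 without the libraries high for Hba-a1. The centromere protector genes Sgo1 and Sgo2a had -0.29 and 0.15, and Meikin, which acts at meiotic kinetochores, had -0.07. The separase gene Espl1 had 0.39, and 0.10 without deficient 3. Pttg1, the gene of its inhibitor securin, had -0.71, but -0.37 without heterozygous 5 and -0.30 without the libraries high for Hba-a1. The authors' deposited table gave -0.36 for Hdac8 and -0.40 for Pttg1. Ctcf, the insulator protein at which cohesin loops stall, had 0.31.

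**Figure D5:**
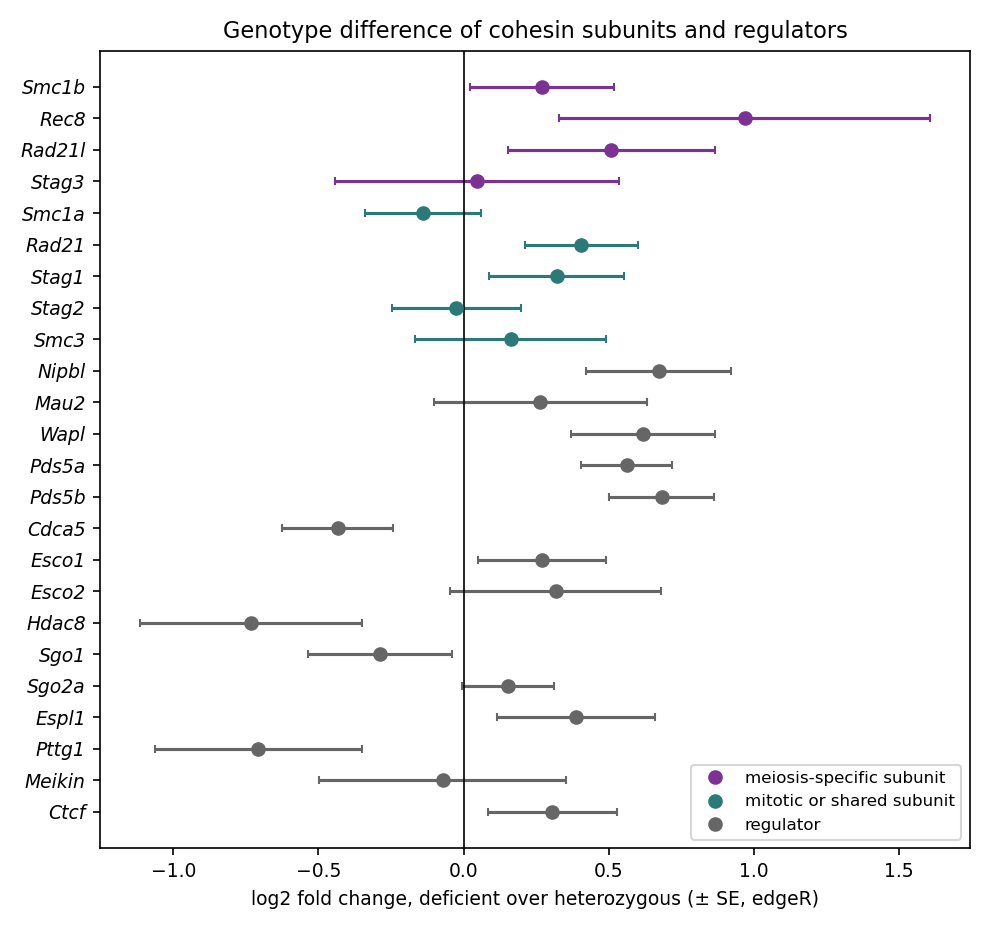
Points are edgeR log2 fold changes, deficient over heterozygous, of the 9 cohesin genes and 15 regulators, and bars are ± 1 SE (5 libraries a group). Rec8 had the widest bar of the 24, and Pds5a, Pds5b, Nipbl and Wapl lay between 0.56 and 0.68.

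The related SMC complexes gave no call either. Of 8 condensin genes, all were tested and 0 called by edgeR, DESeq2 or the authors' deposited table. Of all genes, these called 0%, 3.35% and 6.55%, so 0 calls in a list this short says little about its genes. At an unadjusted p under 0.05 edgeR and DESeq2 had 0 of the condensin genes. Over all genes this held for 16.6% in edgeR and for 4514 genes in DESeq2. The median log2 fold change of the condensin genes was 0.07 in edgeR. Smc4, the condensin gene with the highest mean, averaged 516 ± 162 CPM among heterozygous and 524 ± 84.8 CPM among deficient libraries (SD, n = 5 each). Of 7 genes of the SMC5/6 complex, 6 were tested and 0 called by edgeR, DESeq2 or the authors' deposited table. At an unadjusted p under 0.05 there were 0 with edgeR and 1 with DESeq2, and the median was -0.02, while Eid3 did not pass the filter. Smc6, the highest of these, was at 332 ± 93.8 and 430 ± 93.7 CPM (SD, n = 5 each).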

How the data were processed

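The authors deposited raw counts, TPM and a DESeq2 comparison. Per the submitters' processing notes, reads were trimmed (Trim Galore, version 0.5.0), mapped to GRCm38 (HISAT2, version 2.1.0) and counted (featureCounts in Subread, version 1.6.2), and TPM came from StringTie 1.3.3b. For the genes checked above, however, each TPM was the deposited count over a fixed gene length. Results on TPM and on counts are therefore not separate measurements. In that deposited table the columns are a mean normalized count (a signal), log2 fold changes with standard errors, a score (the Wald statistic) and p-values with adjusted p-values, per the file headers. No source used here gives the strand setting or model terms.

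From the counts, all 10 libraries were tested for genotype by edgeR's quasi-likelihood method (version 4.0.16 under R 4.3.3) with TMM scaling and edgeR's expression filter. P-values were adjusted by Benjamini-Hochberg over 19244 genes and called under 0.05. Meiotic-to-mitotic ratios used log2(TPM + 0.1), which understates changes of low genes, with two-sided exact permutation tests between genotypes and exact sign-flip tests within libraries, each adjusted over 5 pairs. Exon lengths and uniqueness came from GENCODE M21. On simulated counts, 15% of 100 genes changed 2-fold and 76% of 100 changed 4-fold were recovered, with 5 of 18553 unchanged genes called among 18745 tested.

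The named genes are the 9 subunits, 15 regulators, the highest condensin and SMC5/6 gene, the 3 genes most like each meiosis-specific subunit, and Taf4b, Stra8 and Hba-a1. Members and lists were chosen with earlier results of these data known. Alternatives were DESeq2 1.42.0, other scalings, filters and pseudocounts, limma 3.58.1 on TPM, covariates and libraries left out. Levels per kilobase and leaving out a litter date were added after seeing the data.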

Additional observations from a re-analysis of the deposited data

Results flagged for a closer look

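Stag1 in deficient 5 was at 86.0 CPM, far from the other deficient libraries at 123 to 136 CPM. The gap to the nearest of them was 0.731 of the group's range, above Dixon's critical value of 0.71 for 5 samples. This was the only such value among 28 groups examined, and chance alone gives about 1 in 20. Deficient 5 is also high for Hba-a1, at 590 CPM, and the part of that in the result was not tested.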

How the results depend on the processing

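No cohesin gene was called under any of 24 alternatives (adjusted p from 0.112 to 1.00), and 200 of their fold changes kept their direction while 16 reversed. The number of all genes called, 0 with edgeR, was 679 with DESeq2, 251 with no low-count filter, 241 with high Hba-a1 as a covariate and 0 to 606 with 1 library left out (606 without heterozygous 1, 1 without heterozygous 2). Same-numbered libraries had correlations of 0.17, 0.12 and 0.59 for numbers 1, 3 and 5, which share a litter date, and 0.035 and -0.26 for numbers 2 and 4, which do not. Not every pair deviated together, so the numbers were not taken to pair the samples. The replicate block called 1 gene. The log2 fold change of Stag3 was -0.055 with high Hba-a1 as a covariate, -0.31 without the libraries high for it, -0.25 to 0.27 with 1 library left out and -0.34 without the second litter date. For Stag2 the same settings gave 0.038, 0.21 and -0.15 to 0.056, and 0.13 without the third date. For Smc3 it was -0.11 without the libraries high for Hba-a1 and -0.030 without the third date. Between genotypes, without the libraries high for Hba-a1, Rad21l over Rad21 was -0.19 and Stag3 over Stag2 -0.56. With 1 library left out, Rad21l over Rad21 ran from -0.10 to 0.50, Stag3 over Stag1 from -0.39 to 0.078 and Stag3 over Stag2 from -0.21 to 0.67. Within heterozygous and within deficient libraries, Smc1b over Smc1a was 4.19 and 4.62, Rad21l over Rad21 2.89 and 3.06, and Stag3 over Stag2 5.42 and 5.72. An exact test on 5 libraries cannot go below p = 0.0625. Rec8 over Rad21 was -0.11 in heterozygous libraries and 1.18 without those high for Hba-a1. Stag3 over Stag1 was 0.46 without them, 4.41 per kilobase of exon and 3.78 per kilobase of the longest transcript. The causes were not tested, apart from the length used for Stag1. Rec8 had 51 counts in heterozygous 5, and what depth adds to its spread was not tested.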
